A study of Mus musculus with 2 samples.

Results

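The 4 genes described here, Col2a1, Acan, Runx2 and Spp1, are markers of cartilage and bone, and the question was whether c-Fos peaks lay at or around them. Peaks were taken when their centre fell in a window of mm9 that spans the gene with about 100 kb on each side. This gave 14 of the 10870 peaks in the list: 8 at Runx2, 4 at Spp1, 2 at Col2a1 and 0 at Acan.

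The cells were mouse bone marrow mesenchymal stem cells, stromal cells able to give rise to osteoblasts, chondrocytes and adipocytes. They were knocked out for p53 (p53KO), a tumour suppressor, were made to express c-Fos, and had gone through less than 20 passages. Fixed chromatin of 50000000 cells was precipitated with 10 ug of an anti-cFos antibody, giving 1 ChIP library, and 1 library of input DNA came from the same kind of cells. All libraries thus share the p53 knockout and the added c-Fos, and the sources used here do not say how c-Fos was expressed or whether the culture came from 1 clone. The list therefore shows peaks under added c-Fos, with no comparison to cells without it and no replicate. No list of expressed genes is part of these files, so the labelled cell type could not be checked against its markers.

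The 4 genes stand at different steps of skeletal differentiation. Runx2 encodes the transcription factor that drives osteoblast formation and chondrocyte maturation, and it is read from a distal and a proximal promoter. Col2a1 encodes the main fibrillar collagen of cartilage and Acan encodes aggrecan, its large proteoglycan, and both are well known targets of the factor Sox9. Spp1 encodes osteopontin, a secreted phosphoprotein of bone matrix. c-Fos acts in AP-1, a dimer with a Jun protein that binds the sequence TGANTCA, often at enhancers far from gene starts.

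The RefSeq promoter table (GRCm38.p6) had entries for 3 of the 4 genes. Col2a1 was not matched. The sequences of Runx2 and Spp1 are shown because Runx2 had a c-Fos peak near the end of the gene where it begins, about 100 kb inside its window, while Spp1 had its peaks only at a distance. Each run gives the 250 bases before the start site, 5′ to 3′ along the gene, with the Runx factor motif AACCACA in capitals.
Runx2, chr17:44814628-44814877, minus strand: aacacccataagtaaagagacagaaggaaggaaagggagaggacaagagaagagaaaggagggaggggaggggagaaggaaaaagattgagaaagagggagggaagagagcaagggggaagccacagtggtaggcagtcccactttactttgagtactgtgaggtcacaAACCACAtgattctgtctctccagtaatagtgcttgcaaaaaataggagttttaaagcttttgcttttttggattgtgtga
Spp1, first of 2 listed starts, chr5:104434861-104435110, plus strand: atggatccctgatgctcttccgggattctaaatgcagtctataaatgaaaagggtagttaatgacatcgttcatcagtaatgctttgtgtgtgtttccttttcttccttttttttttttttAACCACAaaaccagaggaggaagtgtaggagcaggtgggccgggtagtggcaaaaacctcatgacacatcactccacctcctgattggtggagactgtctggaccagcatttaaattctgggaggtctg
These coordinates belong to GRCm38.p6 and cannot be set beside the mm9 positions of the peaks.

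The AP-1 motif TGANTCA, searched on both strands, was in none of the 4 promoter windows of Runx2, Acan and Spp1, each 300 bases long with 50 bases after the start. Of the 32851 promoter windows of the table, 7.81% held it. A c-Fos peak is wider than such a window, and the peaks' own sequences were not used here, so this says only that these letters are not in these windows. The motif AACCACA, the core that Runx proteins bind and which overlaps no TGANTCA here, was in 5.27% of all promoter windows. It was in that of Runx2 at positions -81, 23 and 31 from the start, and in the first of Spp1 at position -129. Acan and the second start of Spp1 had no match on either strand. AACCACA was searched after the AP-1 motif had given no match.

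Runx2 had the most c-Fos peaks of the 4 genes, and all of them fell within the stretch that is about the gene itself. Its window ran from 44532000 to 45052000 on chromosome 17 and held 8 peaks. With 100 kb taken off each side, the window from 44632000 to 44952000, about the gene itself, still held all 8, and the flanks held 0. RefSeq places Runx2 on the minus strand, so the gene begins at the upper end of this stretch. The nearest peaks beyond the window were 465 kb from the lowest of the 8 (from 44171702 to 44172761, score 135.51) and 255 kb from the highest (from 45206841 to 45207672, score 58.54).

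**Figure D1:**
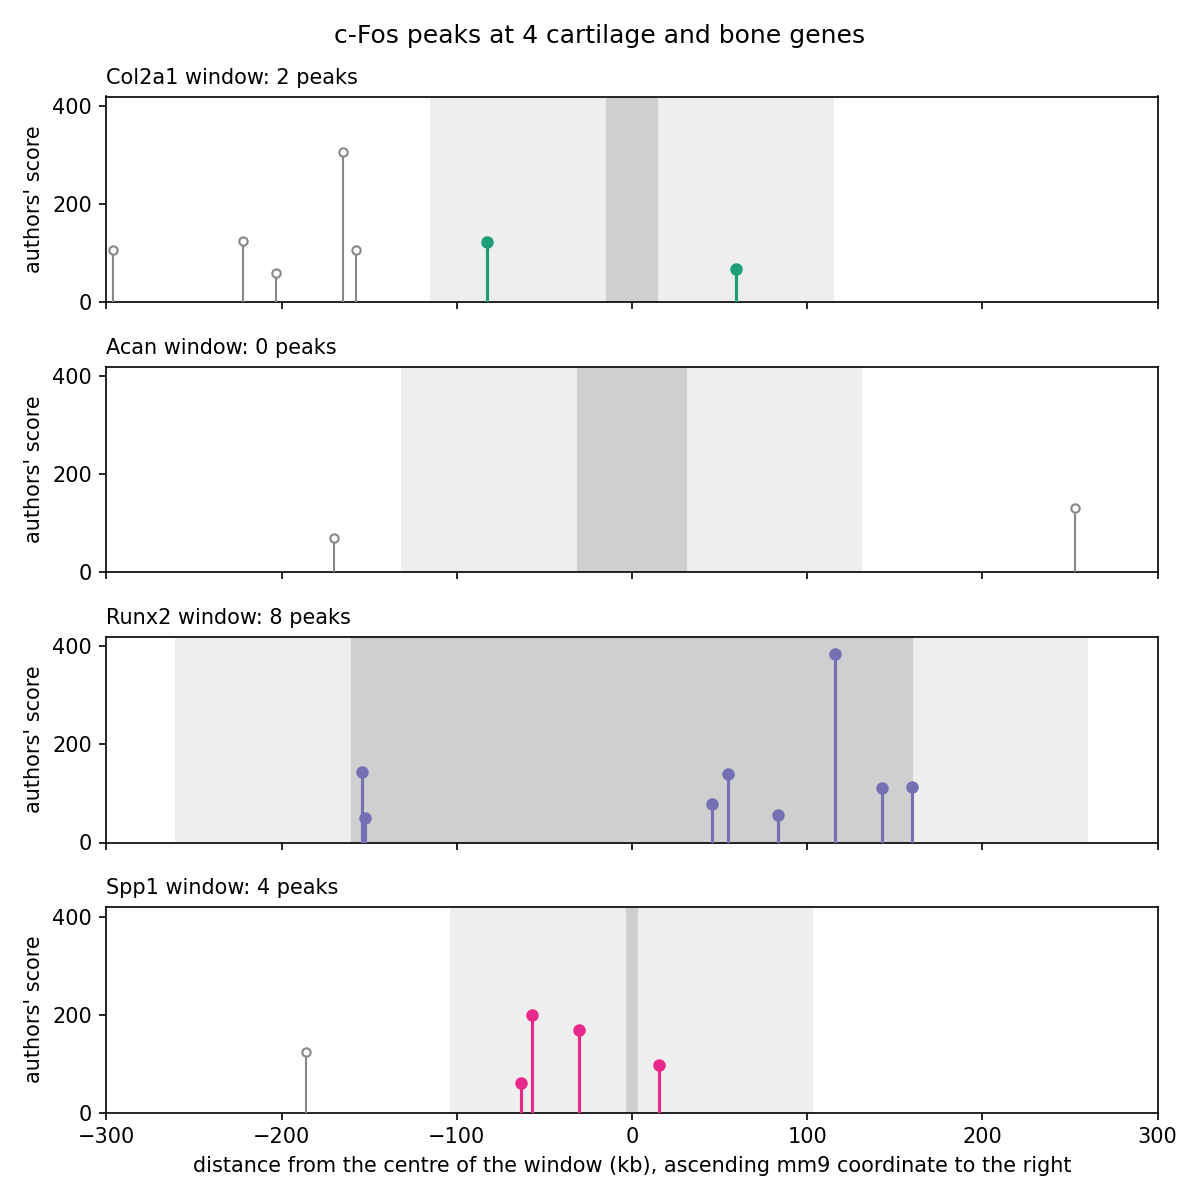
c-Fos peaks in the windows of Col2a1, Acan, Runx2 and Spp1, as distance in kb from the centre of each window (horizontal) against the score deposited by the authors (vertical). Light grey marks the window, dark grey the window less 100 kb on each side, filled points the 14 peaks inside the windows and open points peaks outside them. The 8 Runx2 peaks stand over the dark stretch, the Col2a1 and Spp1 peaks stand beside it, and the Acan window is empty.

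Along Runx2 the peaks formed 2 groups with 198 kb between them. The upper group, on the side where the gene begins, held 6 peaks within 115 kb, or 36.1% of the narrowed window. The lower group, near the gene's far end, was a close pair.

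The peak at the very start of the stretch ran from 44951491 to 44952397 and scored 114.03, rank 4769 of the list. It lay across the upper edge of the narrowed window, with 509 bp below that edge and 397 bp above it. Among the 14 peaks it was the only one to span an edge of this kind. Because the window leaves about 100 kb around the gene, this places the peak near the end of the gene that holds its distal promoter, but does not measure its distance to a start site. RefSeq also has Supt3, a subunit gene of a transcription coactivator complex, overlapping Runx2. Where along Runx2 the overlap lies was not worked out here. Neither this peak nor the others along Runx2 can therefore be assigned to one gene or the other.

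Going into the gene, the next peak lay 17.5 kb inside, from 44934058 to 44934920, with a score of 111.09. The peak of highest score among the 14 followed, from 44907518 to 44908567. It scored 383.94, rank 514 of 10870, which puts it at the 95.3rd percentile of the list, and its centre was 44.0 kb from the upper edge. With 1050 bp it was also the widest Runx2 peak, although peaks of like score are mostly wider still: it was at the 19.2nd percentile of width among the 500 peaks nearest to it in score.

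The other peaks of the upper group were of unequal score. The peak from 44875128 to 44875954 scored 57.08, near the lowest score in the list (50.01). A pair 9.63 kb apart ended the group, from 44846585 to 44847553 with a score of 140.74 and from 44836994 to 44837889 with a score of 79.34. Scores in the upper group thus ran from 57.08 to 383.94, and 4 of its 6 peaks were above the list's median of 101.

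The lower pair had only 757 bp between its peaks. The peak from 44637166 to 44638126 scored 143.09, and its neighbour from 44638884 to 44639860 scored 50.99, rank 10674, close to the bottom of the list. The neighbour was 977 bp wide, at the 98th percentile of peaks of like score, which is wide for so low a score. The pair lay 5.65 and 7.37 kb inside the lower edge of the narrowed window. Next to Runx2 on that side RefSeq lists Clic5, a chloride channel family gene, and then Enpp4.

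The Runx2 window held 15.4 peaks per Mb (95% Poisson interval 6.64 to 30.3), against 5.89 on chromosome 17 as a whole and 4.26 over chromosomes 1 to 19 and X. When those chromosomes were divided into adjacent windows of 520 kb, 6.14% held at least 8 peaks and the median window held 1. On chromosome 17 alone the share was 12.6%, so windows this full were less rare there. For the narrowed window the share of 320 kb windows with at least 8 peaks was 1.71%. That count of 8 includes the peak across the upper edge, whose centre lay only 0.056 kb inside it, and the edge is approximate. The share for chromosome 17 alone was not computed at this width. Chosen genes stand at chosen places, so these shares are background for the count and not a test of it. Peaks of the list with a score of at least 100 made up 50.7%, and 5 of the 8 Runx2 peaks were among them.

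**Figure D2:**
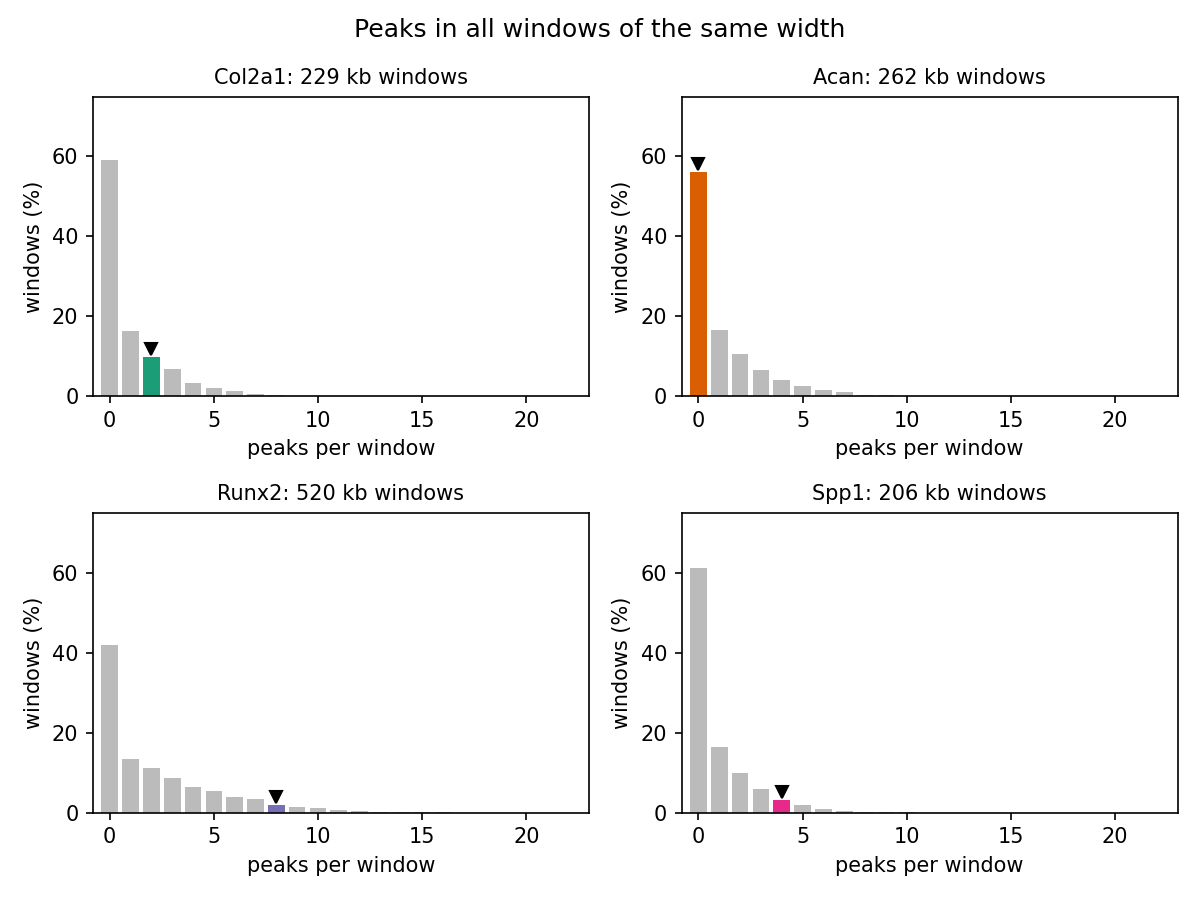
Share of all adjacent windows of the same width (vertical, percent) that held a given number of c-Fos peaks (horizontal), on chromosomes 1 to 19 and X, in one panel for each gene. The coloured bar and the triangle mark the count of the gene's own window: 0 for Acan and 2 for Col2a1, near the bulk of windows, and 8 for Runx2 and 4 for Spp1, in the upper tail.

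At Spp1 the peaks stood around the gene and not on it. The window ran from 104764000 to 104970000 on chromosome 5 and held 4 peaks, with 0 in the stretch of 6 kb, about the gene itself, that remained after narrowing by 100 kb. On the plus strand the gene begins at the lower end, and 3 of the 4 peaks were on that side.

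Closest below the gene, 27.2 kb from the narrowed window, was the peak from 104836303 to 104837354, with a score of 169.39. The peak of highest score at Spp1, 199.09 (rank 2036, 81.3rd percentile), ran from 104809452 to 104810406 and was 54.1 kb away. It stood 6.29 kb from the peak from 104803136 to 104804134, which scored 60.17 and at 999 bp was wide for that score (96.4th percentile of like peaks). On this side RefSeq lists Mepe, Ibsp and Dmp1 in that order, genes for further secreted phosphoproteins of bone and tooth matrix. Their mm9 positions were not used here, so these 3 peaks cannot be given to Spp1 or to one of them.

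The fourth peak lay 12.4 kb beyond the other end of the gene, from 104882036 to 104882853, and scored 97.16. It was the narrowest of the 14, with 818 bp, and narrow for its score (9th percentile of like peaks). RefSeq lists Pkd2, the gene of the cation channel polycystin-2, next on this side. After this peak no other followed for 853 kb, a distance that 5.39% of neighbouring peaks in the list reached. That share counts gaps by number and not by the length they cover, and most of this gap lay outside the window. The nearest peak outside the window was 82.9 kb below it (score 123.65), and the nearest above it was 766 kb away (score 92.45).

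The Spp1 window was the densest of the 4, with 19.4 peaks per Mb (95% Poisson interval 5.29 to 49.7) against 4.12 on chromosome 5. Of all adjacent windows of 206 kb, 6.69% held at least 4 peaks. The window is narrow because the gene is short, so this density rests on few peaks. Of the 4 peaks, 2 scored at least 100, and narrowing the window by 50 kb left 2.

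Col2a1 had a c-Fos peak on each side and none on the gene. Its window, from 97706000 to 97935000 on chromosome 15, held 2 peaks, 142 kb apart. The lower one, from 97737336 to 97738288, scored 122.21 and stood 68.2 kb from the narrowed window, on the side of Tmem106c and of Vdr, which encodes the vitamin D receptor. The upper one, from 97879401 to 97880323, scored 67.91 and stood 44.9 kb away, on the side of Senp1 and Pfkm, the genes of a SUMO protease and of the muscle phosphofructokinase. The stretch between them, which covers the narrowed window of 29 kb, had no listed peak.

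Many windows of the list held as many. Of all adjacent windows of 229 kb, 24.6% held at least 2 peaks, and on chromosome 15 alone 32.6% did. The window had 8.73 peaks per Mb, with a 95% Poisson interval of 1.06 to 31.5 that includes the 5.57 of its chromosome. Just outside were peaks 43.0 kb below (score 106.24) and 428 kb above (score 252.24).

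Acan had no listed c-Fos peak, either on the gene or in its flanks. Its window ran from 86098000 to 86360000 on chromosome 7. The nearest peaks were 39.1 kb below the window (from 86058392 to 86059373, score 69.93) and 122 kb above it (from 86481194 to 86482278, score 132.39), with 423 kb between their centres. Among neighbouring peaks of the list, 11.8% were at least that far apart, and on chromosome 7 18.3% were. RefSeq has Isg20 and Aen on the lower side of Acan and Hapln3, a gene of the link protein family, with Mfge8 and Abhd2 on the upper side.

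An empty window was the usual case: 56.1% of all adjacent windows of 262 kb held 0 peaks, and 63.6% of those on chromosome 7. A site scoring below 50.01 would not be in the list, so sites of lower score at Acan were not detectable in these data.

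As a set the 14 peaks had scores and widths near those of the list. Their median score was 112.56 (order-statistic interval 60.17 to 169.39) against 101 for the list, and 8 of 14 scored at least 100 (57.1%, Wilson 95% interval 32.6 to 78.6) against 50.7%. The narrowest was 818 bp and the widest 1052 bp. Their median width, 954 bp (863 to 999), compares with 949 bp for the list, and 0 of the 14 were among the widest 5%. The list's medians lay within both intervals.

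**Figure D3:**
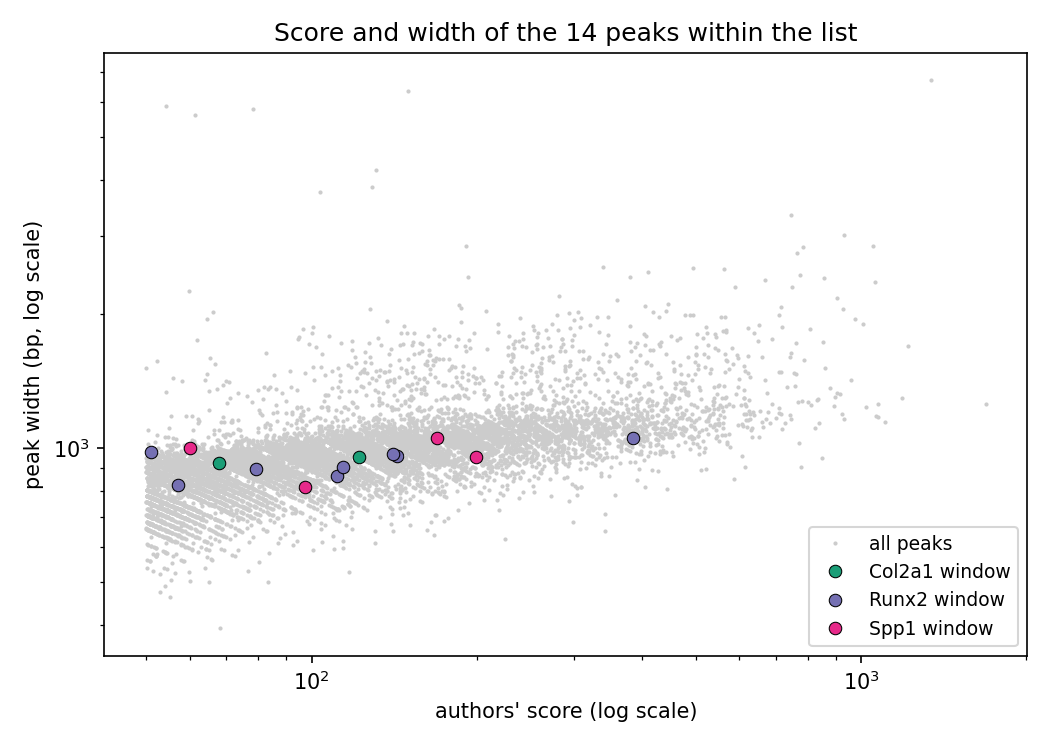
Score deposited by the authors (horizontal, log scale) and width in bp (vertical, log scale) of all 10870 peaks in grey, with the 14 peaks of the windows coloured by gene. The coloured points lie within the main cloud, between 818 and 1052 bp wide, and the Runx2 peak with a score of 383.94 stands farthest to the right.

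Together the windows held 11.5 peaks per Mb (95% Poisson interval 6.29 to 19.3), which is 2.70 times the 4.26 of chromosomes 1 to 19 and X (1.48 to 4.53). With the windows narrowed by 100 kb on each side the ratio was 4.50, and there all 8 peaks were those of Runx2. The Poisson intervals treat peaks as independent, which is too narrow where peaks lie in groups. Runx2 and Spp1, with windows of 520 and 206 kb, gave 12 of these 14 peaks. Col2a1 and Acan, with windows of 229 and 262 kb, gave 2. Of all adjacent windows of these widths, 6.14% held at least 8 peaks and 6.69% at least 4, as at Runx2 and Spp1. At least 2 were held by 24.6%, as at Col2a1, and 0 by 56.1%, as at Acan. The counts do not compare bone with cartilage genes, since the flanks reach other genes. A neighbouring centre within 10 kb was found for 6 of the 14 peaks (42.9%, Wilson 95% interval 21.4 to 67.4), against 27.3% of the list. These were both pairs at Runx2 and the pair at Spp1. In each of the 3 pairs 1 peak scored 140.74 or more and the other 79.34 or less. Both limits were read from these same pairs, and the share of such pairs over the list was not computed.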

How the data were processed

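The file used was the deposited list of c-Fos ChIP peaks, 1 line per peak with its start, end and score. The authors' score has no stated scale, and it served only to describe and rank peaks within the list. Per the submitters' processing notes, MACS 1.4.1, CASAVA 1.8.2 and the build mm9 were used, with no role stated. The peaks in the list carry names that begin with MACS_peak, which marks MACS as the program that called them. Aligner, threshold and control: not given in the sources used here. Read depth is unknown, so no peak height is given. The Poisson intervals cover counting error only. The Wilson and order-statistic intervals treat the peaks of 1 library as independent draws. None of them covers variation between libraries.

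Positions are 1-based mm9. Edges of a narrowed window are those of the window less 100 kb, so distances to a gene are approximate. RefSeq (GRCm38.p6) gave gene order, strand and promoter sequence, and nothing was converted between builds. Background windows were laid side by side from the first peak of a chromosome to its last. No test was run, since there is 1 ChIP library. The functions that assign peaks to windows and count peaks in background windows were tested on simulated positions. Those for intervals, percentiles and gap shares were not.

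All peaks of a window were named where it held at most 15, with the nearest peak outside each edge and the neighbouring genes by order. The genes, windows and lists were chosen with earlier results of these data known. Other cartilage and bone genes were not placed, for want of mm9 positions. Alternatives are given in the closing section. Computations used pandas 2.3.3, scipy 1.17.1 and numpy 2.4.6 in Python 3.11.15, with plots by matplotlib 3.10.9.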

Additional observations from a re-analysis of the deposited data

How the results depend on the processing

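Of 49 alternative values, 36 stayed within the interval of the value first given or within 1.5 times a count, and 13 moved. Several could not move, so the tally does not measure robustness. Leaving out the widest 5% removed 0 of the 14 peaks, so counts, medians and the score share stayed identical. Dropping peaks or narrowing windows could not change the 0 at Acan. The 13 include the search for AACCACA, a different motif. At a score of at least 100 the windows held 5 peaks at Runx2, 2 at Spp1 and 1 at Col2a1, and 0% of those left had a neighbour within 10 kb, because the filter took a peak from each pair. Narrowing by 50 kb on each side left 1 peak at Col2a1 and 2 at Spp1, and narrowing by 100 kb left 0 at both and 8 at Runx2. With background windows from the gene's own chromosome, the share with at least as many peaks was 32.6% for Col2a1, 12.6% for Runx2 and 7.31% for Spp1, and the share with 0 peaks was 63.6% for Acan. The AP-1 motif was in 0 of the 4 promoter windows of the 3 genes with an entry, against 7.81% of all promoter windows. AACCACA, added after the data were seen, was in the window of Runx2 and in 1 of the 2 windows of Spp1, but not in that of Acan. Of all promoter windows 5.27% held it. Col2a1 and starts absent from the promoter list were not searched. The ratio of densities lay between 2.70 and 4.50 under the alternatives, the highest from windows narrowed by 100 kb, where Runx2 alone held peaks. No paired analysis was possible because there was only 1 ChIP library, with no replicate numbers. The 100 kb flanks of the windows reach other genes, and sites below a score of 50.01 cannot be seen.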
